A study of Mus musculus with 18 samples.

Results

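The genes described here are 10 inflammatory chemokines, chosen by name: Ccl2, Ccl3, Ccl4, Ccl5, Ccl7, Ccl9, Cxcl1, Cxcl2, Cxcl10 and Cxcl16. They were read in a table of 57010 mouse genes counted by RNA sequencing in 18 libraries of isolated brain endothelial cells. Of the 10, 9 passed the filter on low counts and were tested among 17531 genes, and Ccl7 did not pass it. All mice carried loxP-flanked Pdcd10 (Pdcd10 fl/fl) and the astrocyte reporter Aldh1l1-EGFP/Rpl10a, and the cells were taken at postnatal day 57. The product of Pdcd10, CCM3, is an adaptor protein, and its loss in endothelium leads to cerebral cavernous malformations. KO mice also carried Slco1c1-iCreERT2, a Cre whose promoter is active in brain endothelium and which acts once tamoxifen is given. The sample records give 50 µg 4-hydroxy-tamoxifen at postnatal day 1 for all 18 libraries, flox included. Flox mice were littermates without the Cre. The series text adds uninjected Cre-carrying mice as controls, without naming the libraries made from them. Hypoxia meant 12% oxygen for 7 days, and normoxia meant 21% oxygen. There were 5 hypoxia KO, 4 hypoxia flox, 5 normoxia KO and 4 normoxia flox libraries, with 17931197 to 31193333 counts each. The labels number the replicates without saying that each is a separate animal, so the p-values measure the spread between these libraries, which may be technical in part.

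Chemokines are small secreted proteins that guide leukocytes by binding receptors on them. Endothelial cells stimulated through NF-kB by interleukin-1, tumour necrosis factor or Toll-like receptors release them at the vessel wall. CXC chemokines of the Cxcl1 and Cxcl2 kind draw neutrophils through the receptor Cxcr2, and Cxcl10 draws activated T cells through Cxcr3. CC chemokines such as Ccl2 draw monocytes through Ccr2, and Ccl3, Ccl4 and Ccl5 draw monocytes and T cells. Leukocytes and microglia make these CC chemokines too.

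The promoters of 5 members were listed by RefSeq (mouse build GRCm38.p6): Cxcl1, Cxcl2, Cxcl10, Ccl3 and Ccl9. The 250 bases before the transcription start are shown 5′ to 3′ for 3 CXC genes, Cxcl1, Cxcl2 and Cxcl10, because their levels varied with the immediate early gene Fos inside the groups. This reason does not separate them from Ccl3, whose promoter is not shown and whose level also ran higher in libraries with high Fos. Capitals mark letters that match the NF-kB (kB) consensus on either strand. The windows are chr5:90890995-90891244 (plus strand) for Cxcl1, chr5:90903649-90903898 (plus strand) for Cxcl2 and chr5:92348890-92349139 (minus strand) for Cxcl10.
Cxcl1: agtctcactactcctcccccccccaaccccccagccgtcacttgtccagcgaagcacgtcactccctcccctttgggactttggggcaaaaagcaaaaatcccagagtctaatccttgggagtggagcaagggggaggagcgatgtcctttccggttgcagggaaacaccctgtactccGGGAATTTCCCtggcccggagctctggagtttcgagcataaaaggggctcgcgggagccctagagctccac
Cxcl2: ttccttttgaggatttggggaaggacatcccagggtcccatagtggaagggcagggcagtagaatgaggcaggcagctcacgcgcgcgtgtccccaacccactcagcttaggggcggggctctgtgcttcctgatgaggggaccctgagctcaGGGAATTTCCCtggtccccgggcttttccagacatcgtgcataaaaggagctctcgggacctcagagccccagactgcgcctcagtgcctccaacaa
Cxcl10: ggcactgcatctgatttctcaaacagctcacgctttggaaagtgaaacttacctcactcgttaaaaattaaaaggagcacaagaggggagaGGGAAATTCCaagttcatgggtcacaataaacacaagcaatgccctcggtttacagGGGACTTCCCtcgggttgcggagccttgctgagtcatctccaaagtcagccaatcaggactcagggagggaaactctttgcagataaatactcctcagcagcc
Cxcl1 and Cxcl2 carry the same kB letters, GGGAATTTCC, beginning 71 bases before the start in Cxcl1 and 97 bases before it in Cxcl2. The kB match on the opposite strand overlaps it in both. Cxcl10 has 2 separate matches, beginning 159 and 103 bases before the start. It also holds the core of the interferon-stimulated response element, searched as GAAA, any 2 bases and GAAA, as GAAAGTGAAA at 213 bases before the start, and the AP-1 motif TGANTCA, 74 bases before it, a palindrome that reads on both strands. A kB match was present in 3.90% of 32851 promoter windows of this length, the interferon element in 2.98% and TGANTCA in 6.75%. Of the 5 members listed, 4 held a kB match, Ccl3 being the exception, 2 held TGANTCA and 1 held the interferon element, with both strands searched for each motif. These are matches of letters and no binding was measured.

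Marker genes of endothelium, the labelled cell type, summed to between 15987 and 23973 CPM (counts scaled to library size) in all 18 libraries. Pdcd10 stood between 18.2 and 25.3 CPM in hypoxia KO against 37.7 to 60.9 CPM in hypoxia flox, and between 16.3 and 20.1 CPM in normoxia KO against 30.6 to 45.0 CPM in normoxia flox. Several libraries stood apart. Normoxia KO 4 and normoxia flox 4 held neural RNA (Syt1 at 471 and 838 CPM, at most 8.68 CPM elsewhere). Neutrophil markers summed to 133 CPM in hypoxia KO 4, against at most 8.03 CPM elsewhere. Fos, which rises within minutes of cell stress or tissue dissociation, was at 3088 to 5734 CPM in 9 libraries and at 221 to 1326 CPM in the other 9. The high ones were hypoxia KO 2 to 5, hypoxia flox 2, normoxia KO 1, 2 and 5 and normoxia flox 1. Sex differed too: by Xist and Y-linked counts, hypoxia KO 4 and all 4 hypoxia flox libraries looked male and the other 4 hypoxia KO libraries looked female. In normoxia the log2 ratio of Y-linked to Xist counts ran from -14.5 to 9.76 in KO, with a median of -3.97. In normoxia flox it ran from -14.2 to 9.89, with a median of -1.34. The normoxia KO library at the median thus held both Xist and Y-linked RNA, and the reason was not tested. Sex was entered only as a covariate, and the same 6 hypoxia calls remained. In hypoxia only KO 4 departs from the split of sex by genotype, so the parts of sex and genotype there cannot be told apart.

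Cxcl1 was the most abundant member in all 18 libraries by RPKM, reads scaled by gene length and library size, which is the scale used here between genes. Its deposited RPKM ran from 1.7 to 120.5, and it made up 47.2% to 79.7% of the summed RPKM of the 10 members. Over the 18 libraries the mean RPKM fell in the order Cxcl1 at 53.8 ± 45.9, Cxcl2 at 15.5 ± 15.8, Cxcl10 at 4.56 ± 3.66, Ccl5 at 1.75 ± 2.86 and Cxcl16 at 1.51 ± 0.831 (SD, n = 18). Below them were Ccl4 at 0.844 ± 1.08, Ccl2 at 0.450 ± 0.586, Ccl3 at 0.389 ± 0.464, Ccl9 at 0.294 ± 0.284 and Ccl7 at 0.1 ± 0.124 RPKM. Each gene's SD over libraries exceeded the gap between its mean and the next one down, so neighbours in this order did not differ beyond that spread, although Cxcl1 was above every other member within each library. The summed RPKM of the 10 members was 20.1 to 176.1 in hypoxia KO, 7.7 to 153.0 in hypoxia flox, 11.2 to 143.5 in normoxia KO and 3.6 to 77.7 in normoxia flox.

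The mean CPM was highest in hypoxia KO for all 10 members. It was lowest in normoxia flox for 7 of them and in hypoxia flox for Ccl3, Ccl4 and Ccl9. The spread inside groups was wide. Hypoxia KO 1 was the lowest hypoxia KO library for all 10 members, and hypoxia KO 4 was the highest of all 18 libraries for 6 (Ccl2, Ccl3, Ccl4, Ccl5, Ccl9 and Cxcl16). A count of 0 in a library allows up to 3 counts, or 0.0951 to 0.162 CPM by library, and covers counting error only.

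**Figure D1:**
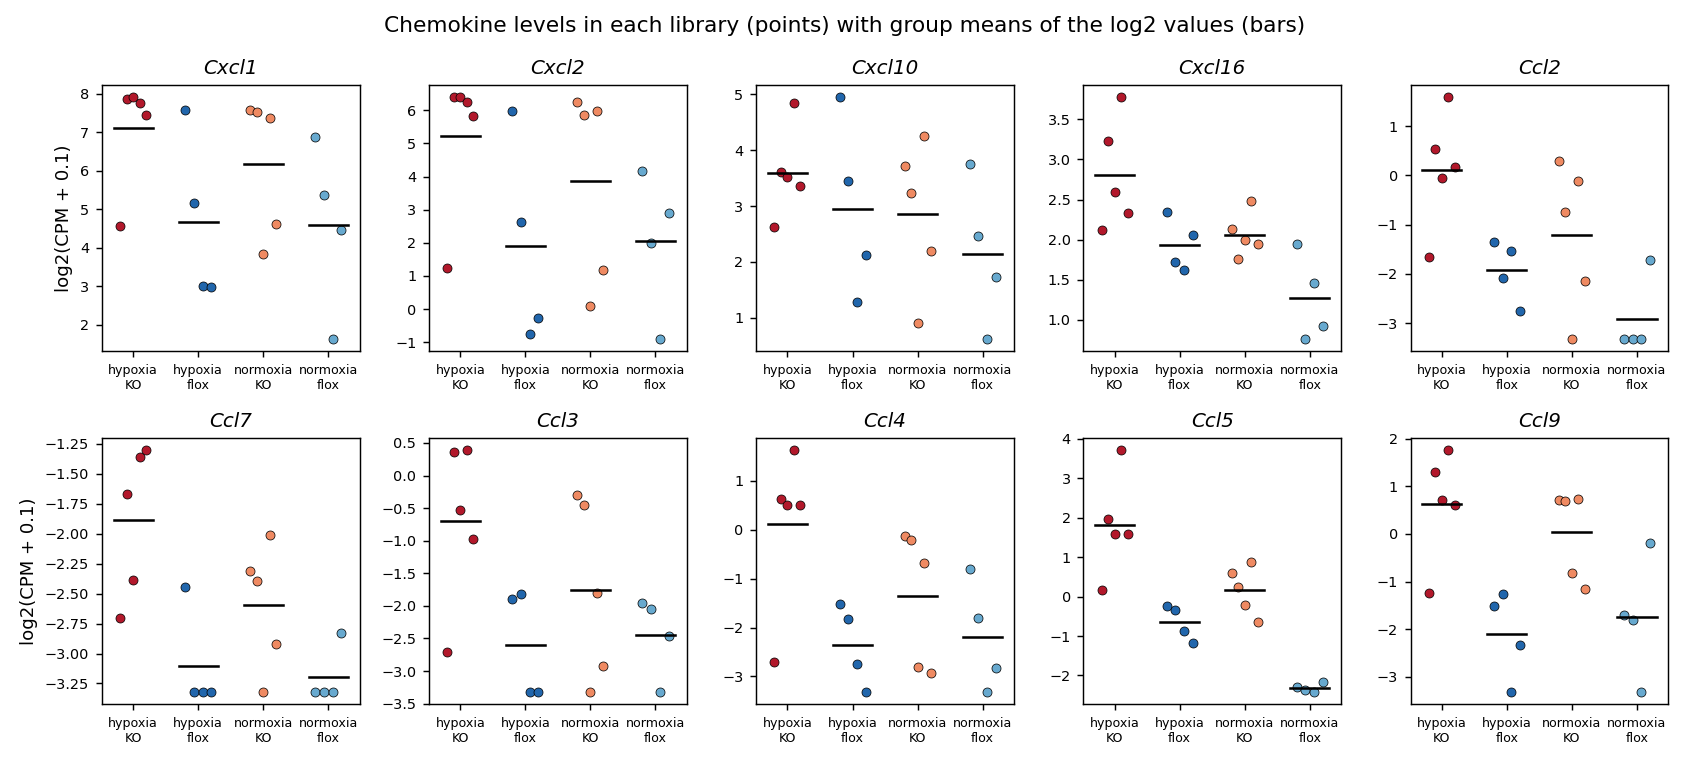
Level of each of the 10 chemokine genes in each library, as log2(CPM + 0.1), with hypoxia KO, hypoxia flox, normoxia KO and normoxia flox from left to right; points are libraries in order of replicate number and bars are means of the log2 values. Ccl5 separates KO from flox at both oxygen levels, while Cxcl1 and Cxcl2 have high and low libraries in every group.

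Genotype was compared first under hypoxia, where 6 of the 9 tested members were higher in KO than in flox and 0 were lower. The 6 were Ccl2, Ccl3, Ccl4, Ccl5, Ccl9 and Cxcl16, and the CXC genes Cxcl1, Cxcl2 and Cxcl10 did not pass. Ccl2, Ccl3 and Ccl4 passed the filter on low counts only with the hypoxia KO libraries included, where they were highest. Their being tested is thus not independent of this comparison. The count of 6 of 9, and the median and signs over the members given below, are partly set by the filter. The test was edgeR's quasi-likelihood test, with p-values adjusted by Benjamini-Hochberg over all 17531 genes and a threshold of 0.05. In this comparison 22.3% of all genes passed, 11.4% as higher and 11% as lower. The median log2 fold change was 2.76 over the 9 members, which is the value of Ccl2, and 0.00 over all genes. All 9 members had a positive value, as did 49.8% of all genes. In normoxia 1 of the 9, Ccl5, was higher in KO and 0 were lower, where 16.6% of all genes passed, 9.54% as higher and 7.03% as lower. All 9 values were again positive, as were 47.6% of all genes, with a median of 1.58 against -0.02 over all genes, and 4 members had an unadjusted p under 0.05. Ccl2, Ccl3 and Ccl4 passed the filter only through KO libraries, so the normoxia median and signs are partly set by it too. The percentages of all genes given here are those against which each count below is read.

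Cxcl1 (ENSMUSG00000029380) and Cxcl2 (ENSMUSG00000058427) encode the neutrophil attractants. Cxcl1 was at 23.6, 230.0, 240.1, 217 and 173 CPM in hypoxia KO 1 to 5, against 189.7, 35.4, 7.97 and 7.79 CPM in hypoxia flox 2 to 5. Normoxia levels of Cxcl1 were 191, 184, 14.3, 165 and 24.3 CPM in KO 1, 2, 4, 5 and 6, against 118, 41.2, 3.0 and 21.8 CPM in flox 1 to 4. High and low libraries occurred in each group and KO overlapped flox at both oxygen levels. Cxcl2 was at 2.26, 84.3, 83.6, 75.9 and 56.7 CPM in hypoxia KO, against 62.7, 6.07, 0.495 and 0.735 CPM in hypoxia flox. Normoxia levels of Cxcl2 were 75.5, 58.3, 0.976, 63.4 and 2.16 CPM in KO, against 18.1, 3.89, 0.434 and 7.38 CPM in flox. The same libraries were high and low for both genes. The log2 fold change of Cxcl1 was 1.55 ± 1.11 (SE) in hypoxia (adjusted p = 0.355, edgeR) and 1.33 ± 1.10 in normoxia (adjusted p = 0.478). That of Cxcl2 was 1.78 ± 1.39 in hypoxia (adjusted p = 0.401) and 2.44 ± 1.45 in normoxia (adjusted p = 0.297). Neither passed, and the 95% intervals were wide, from -0.81 to 3.91 for Cxcl1 and from -1.17 to 4.74 for Cxcl2 in hypoxia. The genes are close relatives, and reads that fit both could have been split between them, since the handling of such reads is not given in the sources used here.

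The high libraries of both genes were those with high Fos. In the 9 libraries with Fos above 3000 CPM, a limit drawn after the values were seen, Cxcl1 ran from 118 to 240.1 CPM and Cxcl2 from 18.1 to 84.3 CPM. In the other 9 libraries Cxcl1 ran from 3.0 to 41.2 CPM and Cxcl2 from 0.434 to 7.38 CPM, so the ranges did not overlap for either gene. This held inside groups: hypoxia flox 2, the one hypoxia flox library with high Fos, had the highest Cxcl1 and Cxcl2 of its group, and hypoxia KO 1, the one with low Fos, had the lowest of its own. The ratio of Cxcl1 to Cxcl2 CPM, read only between libraries, was 2.53 to 3.15 in 8 of the 9 high-Fos libraries and 6.53 in normoxia flox 1. It was 5.84 to 16.1 in the low-Fos libraries other than normoxia flox 4, where it was 2.95. With the mean log2 CPM of 12 immediate early genes as a covariate, the hypoxia difference was 0.18 ± 0.23 for Cxcl1 (adjusted p = 0.608) and 0.04 ± 0.47 for Cxcl2 (adjusted p = 0.964). The 12 are Fos, Fosb, Jun, Junb, Egr1, Egr2, Egr3, Ier2, Atf3, Nr4a1, Dusp1 and Btg2. Dusp1 and Nr4a1 are among the 3 genes nearest to Cxcl1 over these libraries (r = 0.984 and 0.981). The small adjusted value of Cxcl1 was thus partly fixed by the choice of genes. Without hypoxia flox 2 and with no covariate, the hypoxia difference was 3.37 ± 1.21 for Cxcl1 and 4.61 ± 1.62 for Cxcl2, and neither passed. 0 of the 12 immediate early genes passed for KO against flox at either oxygen level, with a median log2 fold change of 1.33 in hypoxia and 0.89 in normoxia.

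**Figure D2:**
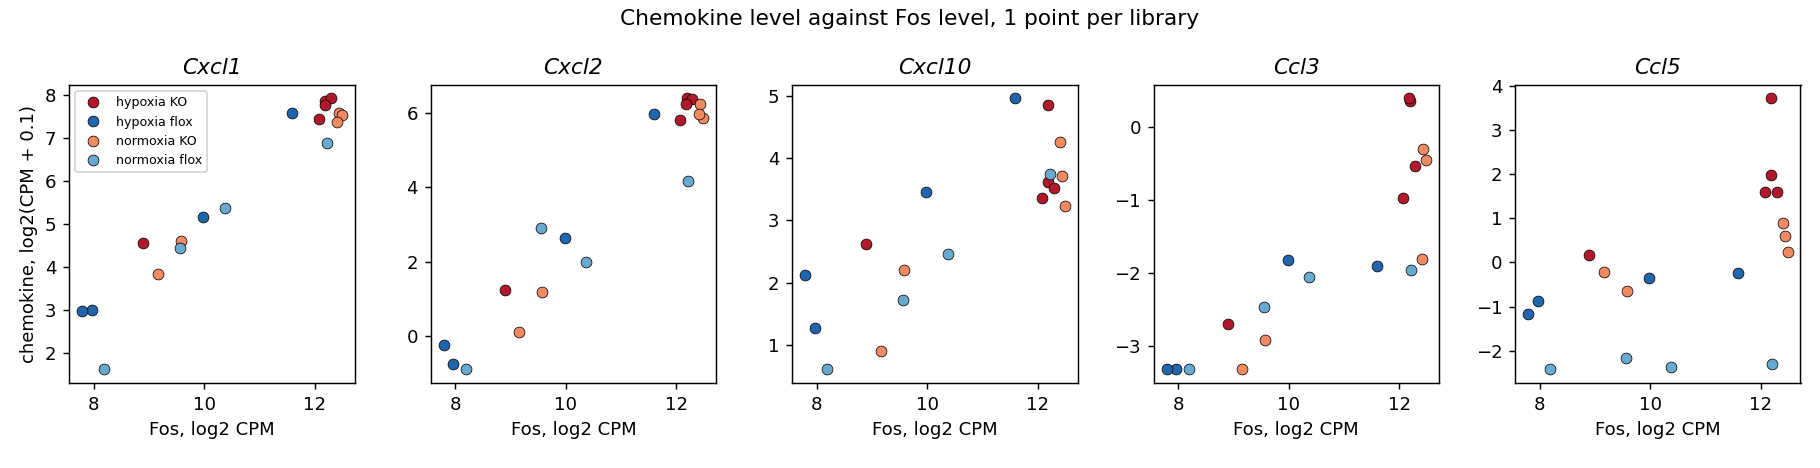
Level of Cxcl1, Cxcl2, Cxcl10, Ccl3 and Ccl5, as log2(CPM + 0.1), against log2 CPM of Fos, 1 point per library and 1 colour per group. Cxcl1 and Cxcl2 lie at high values only where Fos is high, whereas Ccl5 in normoxia flox stays near 0.1 CPM at every Fos level.

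Cxcl10 (ENSMUSG00000034855), which interferon and NF-kB induce, was at 6.03, 12.2, 11.4, 28.7 and 10.2 CPM in hypoxia KO, against 30.9, 10.9, 2.33 and 4.26 CPM in hypoxia flox. Under normoxia the values were 13, 9.29, 1.78, 19.0 and 4.50 CPM in KO, against 13.4, 5.44, 1.43 and 3.22 CPM in flox. The highest of all 18 libraries was hypoxia flox 2, and the groups overlapped throughout. The log2 fold change of KO against flox was 0.18 ± 0.77 in hypoxia (95% interval -1.46 to 1.81, adjusted p = 0.910) and 0.71 ± 0.80 in normoxia (-0.99 to 2.41, adjusted p = 0.616). The value in hypoxia was -0.75 ± 0.38 with the immediate early covariate (adjusted p = 0.181) and 1.23 ± 0.80 without hypoxia flox 2 (adjusted p = 0.299), so its sign depended on the setting.

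Cxcl16 (ENSMUSG00000018920) encodes a chemokine made as a transmembrane protein, shed by Adam10, and its receptor is Cxcr6. It was at 4.25, 9.27, 5.92, 13.6 and 4.95 CPM in hypoxia KO, against 4.99, 3.19, 2.97 and 4.07 CPM in hypoxia flox. In normoxia it was at 4.28, 3.27, 3.91, 5.47 and 3.74 CPM in KO, against 3.76, 1.59, 2.65 and 1.79 CPM in flox. Most KO libraries lay above flox, with an overlap at each oxygen level. It was higher in hypoxia KO by a log2 fold change of 1.00 ± 0.33 (adjusted p = 0.0376), and in normoxia the difference of 0.77 ± 0.34 did not pass (adjusted p = 0.144). The hypoxia call held in 19 of 30 alternatives. Among others, it was lost without hypoxia KO 2 (0.92, adjusted p = 0.0820), hypoxia KO 4 (0.68, adjusted p = 0.122) or hypoxia flox 3, 4 or 5 (0.90 to 1.02, adjusted p = 0.0777 to 0.110), and with the immediate early covariate it was 0.71 ± 0.34 (adjusted p = 0.145).

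Ccl5 (ENSMUSG00000035042), also called RANTES, was the 1 member called at both oxygen levels. It was at 1.02, 3.83, 2.92, 13 and 2.91 CPM in hypoxia KO 1 to 5, against 0.754, 0.684, 0.446 and 0.343 CPM in hypoxia flox 2 to 5. Under normoxia it stood at 1.43, 1.08, 0.764, 1.75 and 0.539 CPM in KO, against 0.104, 0.0937, 0.0868 and 0.122 CPM in flox. Every KO library lay above every flox library at the same oxygen level. In hypoxia 12% of all genes, and in normoxia 8.59%, had all KO libraries above all flox libraries. The log2 fold change was 3.07 ± 0.59 in hypoxia (adjusted p = 0.00121) and 3.36 ± 0.88 in normoxia (adjusted p = 0.0127), and both calls held in all 30 alternatives. The counts behind the normoxia value were low, 134 over the KO libraries and 9 over the flox libraries. The ratio of pooled CPM was 10.6, with an exact 95% interval of 5.41 to 23.7 for counting error only. Without hypoxia KO 4, the highest library, the hypoxia difference was 2.23 ± 0.39 (adjusted p = 8.88e-04). Among hypoxia libraries with low Fos, KO 1 had 1.02 CPM and flox 3 to 5 had 0.343 to 0.684 CPM. With the immediate early covariate the difference was 2.22 ± 0.60 in hypoxia (adjusted p = 0.0140).

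Ccl9 (ENSMUSG00000019122), a mouse CC chemokine that binds Ccr1, was at 0.323, 2.37, 1.55, 3.30 and 1.43 CPM in hypoxia KO, against 0.251, 0.319, 0 and 0.0980 CPM in hypoxia flox. The groups did not overlap, although KO 1 and flox 3 were separated by 0.323 against 0.319 CPM. In normoxia it was at 1.53, 1.53, 0.467, 1.56 and 0.349 CPM in KO, against 0.209, 0.187, 0 and 0.775 CPM in flox, where flox 4, the library with neural RNA, lay inside the KO range. It was higher in hypoxia KO by 3.34 ± 0.81 (adjusted p = 0.00766), a call that held in all 30 alternatives. In normoxia the difference of 1.79 ± 0.76 did not pass (adjusted p = 0.125). Without normoxia flox 4 it was 2.99 ± 0.94 and passed (adjusted p = 0.0329).

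Ccl3 (ENSMUSG00000000982) and Ccl4 (ENSMUSG00000018930) encode the macrophage inflammatory proteins 1-alpha and 1-beta. Ccl3 was at 0.0539, 1.19, 0.592, 1.21 and 0.408 CPM in hypoxia KO, against 0.168, 0.182, 0 and 0 CPM in hypoxia flox. Its normoxia values were 0.713, 0.628, 0, 0.186 and 0.0317 CPM in KO, against 0.157, 0.141, 0 and 0.0815 CPM in flox. Ccl4 was at 0.0539, 1.45, 1.32, 3.01 and 1.33 CPM in hypoxia KO, against 0.251, 0.182, 0.0495 and 0 CPM in hypoxia flox. In normoxia Ccl4 was at 0.815, 0.763, 0.0425, 0.521 and 0.0317 CPM in KO, against 0.470, 0.187, 0 and 0.0408 CPM in flox. Hypoxia KO 2 to 5 lay above every hypoxia flox library for both genes, and KO 1, with 1 count of each, lay among the flox libraries. Both were higher in hypoxia KO, Ccl3 by 2.84 ± 0.92 (adjusted p = 0.0310) and Ccl4 by 3.46 ± 0.94 (adjusted p = 0.0136). In normoxia neither passed, at 1.58 ± 1.05 for Ccl3 (adjusted p = 0.349) and 1.31 ± 1.05 for Ccl4 (adjusted p = 0.459). Among other settings, the Ccl3 call was lost without hypoxia KO 2 or 4 (2.58 and 2.53) or hypoxia flox 4 or 5 (2.47 and 2.46), and in DESeq2 (adjusted p = 0.0578). The Ccl3 call held in 19 of 28 alternatives. The Ccl4 call held in 28 of 30, and was lost without hypoxia flox 5 (3.07, adjusted p = 0.0510) and in limma on log2 RPKM (2.57, adjusted p = 0.0534). With the immediate early covariate, the hypoxia value was 1.28 ± 0.73 for Ccl3 (adjusted p = 0.224) and 1.76 ± 0.55 for Ccl4, which passed (adjusted p = 0.0256). The pair are close relatives, and reads shared by them could have been split.

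Ccl2 (ENSMUSG00000035385) and Ccl7 (ENSMUSG00000035373) are the monocyte attractants that bind Ccr2. Ccl2 was at 0.215, 1.35, 0.865, 2.91 and 1.02 CPM in hypoxia KO, against 0.293, 0.137, 0.248 and 0.0490 CPM in hypoxia flox. Its normoxia values were 1.12, 0.493, 0, 0.819 and 0.127 CPM in KO, against 0, 0, 0 and 0.204 CPM in flox. The overlap came through KO 1 in hypoxia, and through KO 4 and 6 in normoxia, where flox 4 gave all 5 flox counts. Ccl2 was higher in hypoxia KO by 2.76 ± 0.82 (adjusted p = 0.0199), a call lost without hypoxia KO 4 (2.19, adjusted p = 0.0783) or hypoxia flox 3 or 5 (2.63 and 2.46), or with the immediate early covariate (1.59 ± 0.82, adjusted p = 0.175), and held in 24 of 29 alternatives. In normoxia the difference was 2.99 ± 1.17 (adjusted p = 0.0874). It passed without normoxia KO 4 (3.28, adjusted p = 0.0349) and with both libraries that hold neural RNA left out (adjusted p = 0.0279), when the flox libraries held 0 counts and no fold is given. Ccl7 had 31 counts over all 18 libraries. There were 19 in hypoxia KO and 2 in hypoxia flox, a pooled ratio of 8.26 with an exact 95% interval of 1.99 to 73.2 for counting error, and 9 in normoxia KO and 1 in normoxia flox, a ratio of 6.40 (0.887 to 280.4). Each hypoxia KO library held at least 1 Ccl7 count, and 3 of the 4 libraries in each flox group held none.

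**Figure D3:**
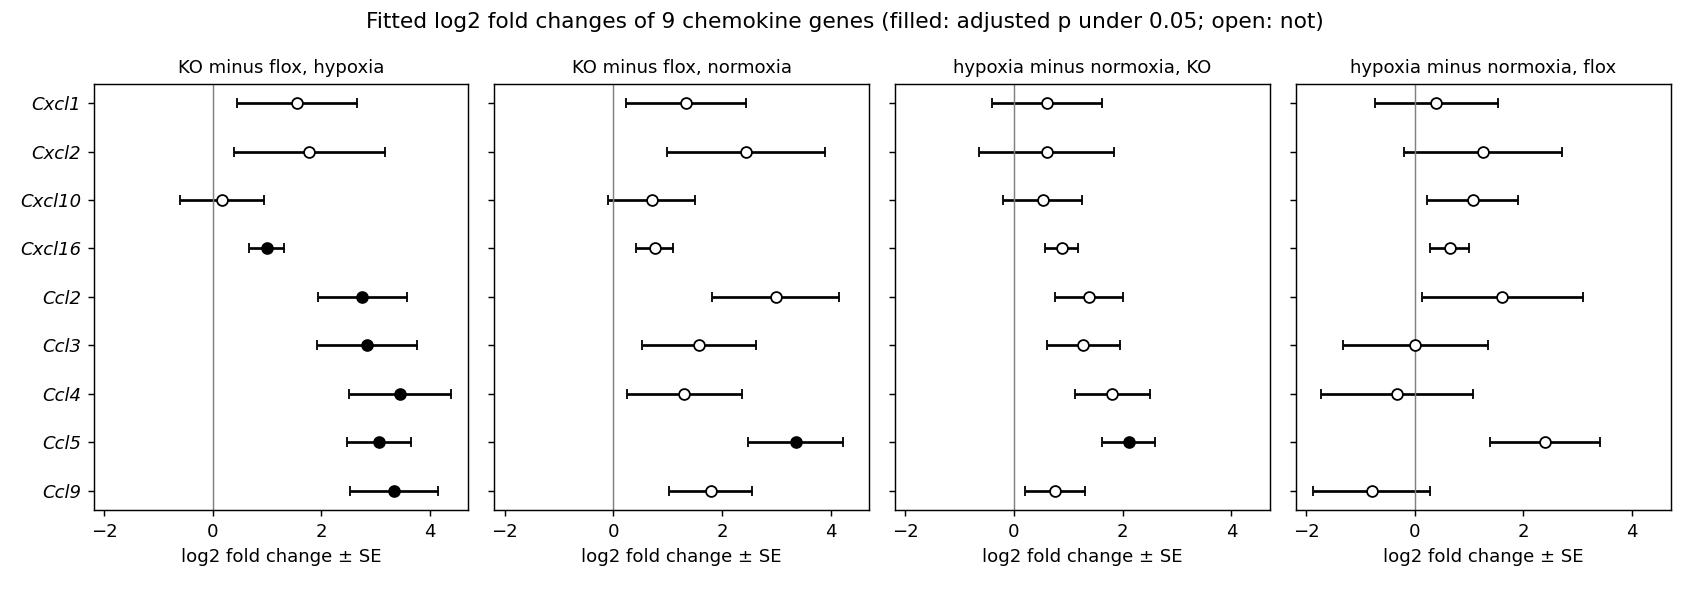
Log2 fold change with its SE for the 9 tested chemokine genes in the 4 comparisons, from the edgeR fit of all 18 libraries; filled points have an adjusted p under 0.05. In hypoxia 6 genes are filled for KO against flox, and Ccl5 is the gene filled in 3 of the 4 panels.

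Several lists of leukocyte markers also differed between KO and flox in hypoxia. Neutrophil markers summed to 3.07 to 133 CPM in hypoxia KO against 0.964 to 3.28 CPM in hypoxia flox. 4 of the 10 on that list could be tested and all 4 were higher in hypoxia KO, while in normoxia 0 of 4 passed. Ly6g, which defines neutrophils, had 0 counts in 16 of 18 libraries and 2 counts in hypoxia KO 4. T and NK cell markers summed to 3.07 to 32.3 CPM in hypoxia KO against 0.784 to 5.41 CPM in hypoxia flox, and 6 of 8 tested were higher. S100a8 of the neutrophil list, and Cd3g, Cd8a, Nkg7 and Gzmb of this list, passed the filter only with hypoxia KO libraries included. The counts of tested markers called higher in these lists are therefore partly set by the filter. Monocyte and macrophage markers summed to 35.5 to 76.5 CPM in hypoxia KO against 21.4 to 31.8 CPM in hypoxia flox, with 6 of 9 higher and 1 lower. B cell markers summed to 25.2 to 56.6 CPM in hypoxia KO against 5.63 to 19.3 CPM in hypoxia flox, with 6 of 7 higher. Microglia markers summed to 34.1 to 72.4 CPM in hypoxia KO against 21.6 to 26.6 CPM in hypoxia flox, with 0 of 7 passing. Their part in the chemokine results was not tested. In normoxia 3 of 9 monocyte and macrophage markers were higher in KO and 1 was lower, and 1 of 8 T and NK cell and 4 of 7 B cell markers were higher. In these bulk samples a change in the number of cells of a type and in RNA per cell cannot be told apart. Without hypoxia KO 4, which carried most of the neutrophil RNA, 3 members were higher in hypoxia KO (Ccl4, Ccl5 and Ccl9), with Ccl4 at 2.99 ± 0.97 (adjusted p = 0.0428) and Ccl9 at 3.0 ± 0.84 (adjusted p = 0.0225). Without hypoxia flox 5 the count was 2. With the immediate early covariate the same 3 passed.

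**Figure D4:**
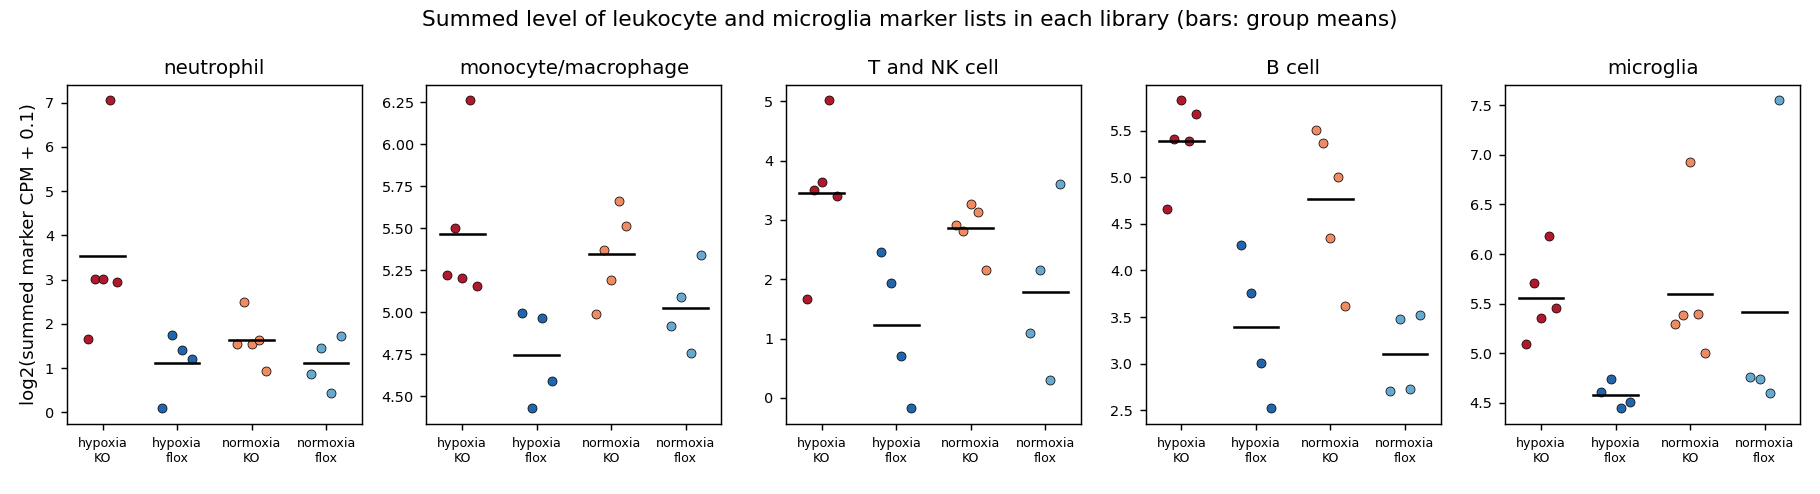
Summed level of marker lists for neutrophils, monocytes and macrophages, T and NK cells, B cells and microglia in each library, as log2(summed CPM + 0.1), with group means as bars. Hypoxia KO 4 stands apart for neutrophil markers at 133 CPM, and normoxia KO 4 and normoxia flox 4 for microglia markers.

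Oxygen was compared within each genotype, hypoxia against normoxia. In KO mice Ccl5 alone of the 9 members was higher, by 2.11 ± 0.49 (adjusted p = 0.0350), where 1.48% of all genes passed and 0.713% as higher. Its 5 hypoxia KO values, from 1.02 to 13 CPM, overlapped the 5 normoxia KO values, from 0.539 to 1.75 CPM, through hypoxia KO 1. All 9 members had positive values in KO, with a median of 0.88 against -0.03 over all genes, of which 44% were positive, and 4 had an unadjusted p under 0.05. Those 4 include Ccl2 and Ccl4, which, like Ccl3, passed the filter on low counts only with the hypoxia KO libraries included. The signs, the median and the count of unadjusted p-values are thus partly set by the filter. The Ccl5 call rested on most libraries, since it was lost on leaving out any one of 11: hypoxia KO 2, 4 or 5, any of the 5 normoxia KO libraries, or normoxia flox 1, 2 or 3. Its value was then between 1.28, without hypoxia KO 4, and 2.36, without normoxia KO 5, with adjusted p from 0.0508 to 0.0954. In flox mice 0 members passed in edgeR and 1 had an unadjusted p under 0.05, where 2.81% of all genes passed, 2.34% as higher. The member was again Ccl5, at 0.343 to 0.754 CPM in hypoxia flox against 0.0868 to 0.122 CPM in normoxia flox, ranges that did not overlap and hold 49 and 9 counts. In flox mice 5.36% of all genes had every hypoxia library above every normoxia library. The Ccl5 difference of 2.40 ± 1.01 in flox did not pass in edgeR (adjusted p = 0.229) but passed in DESeq2, at 2.46 (adjusted p = 0.0415), and in edgeR once hypoxia KO 4 was left out, at 2.40 (adjusted p = 0.0482). Ccl9 and Ccl4 had negative values in flox, -0.79 ± 1.08 and -0.33 ± 1.4, and neither passed, while the other 7 were positive, as were 45.6% of all genes.

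The interaction asks whether the genotype difference depended on oxygen. 0 of the 9 members passed in edgeR, 0 had an unadjusted p under 0.05, and 0 passed in DESeq2, where 0.445% of all genes passed in edgeR. For Ccl5 the difference between hypoxia and normoxia in the genotype effect was -0.29, with a 95% interval of -2.47 to 1.89 on the log2 scale. It was 2.14 for Ccl4 (-1.22 to 5.51) and 1.55 for Ccl9 (-1.02 to 4.13). All 3 intervals include 0, so a call under hypoxia without one in normoxia is not shown to be a difference between them.

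Genes on which these chemokines depend were read from lists of known function. Atypical receptors bind chemokines without signalling for migration, and Ackr2, which takes up inflammatory CC chemokines such as Ccl2, Ccl3, Ccl4 and Ccl5, was higher in KO at both oxygen levels. It was at 33.3, 59.3, 38.9, 45.5 and 49.6 CPM in hypoxia KO, against 7.84, 7.62, 8.77 and 6.17 CPM in hypoxia flox. In normoxia it was at 17.4, 19.0, 16.3, 15.5 and 18 CPM in KO, against 0.522, 0.234, 0.608 and 4.00 CPM in flox. The groups did not overlap, and the highest normoxia flox library was flox 4, with its neural RNA. The log2 fold change was 2.57 ± 0.45 in hypoxia (adjusted p = 8.18e-04) and 3.63 ± 0.50 in normoxia (adjusted p = 1.13e-04). It was higher in hypoxia flox than in normoxia flox by 2.45 ± 0.51 (adjusted p = 0.0119), and in KO the value of 1.4 ± 0.39 did not pass (adjusted p = 0.0979). Of the other 4 atypical receptors, Ackr3, which takes up Cxcl12, was higher in normoxia KO by 0.61 ± 0.18 (adjusted p = 0.0255), and Ackr4 was lower in hypoxia KO, at -1.64 ± 0.45 (adjusted p = 0.0151). Ackr1, which presents chemokines on venous endothelium, and Ccrl2 did not pass in any comparison.

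Of 28 other chemokine ligands, 14 were tested. In hypoxia 5 were higher in KO and 1 was lower, and in normoxia 1 was higher. The eosinophil attractant Ccl11 was higher in both, by 2.79 ± 0.61 in hypoxia (adjusted p = 0.00275), at 0.377 to 1.79 CPM in hypoxia KO against 0 to 0.319 CPM in hypoxia flox. In normoxia it was at 0.297 to 0.897 CPM in KO against 0 to 0.0434 CPM in flox (adjusted p = 0.00308), with 1 count in each of 2 flox libraries. Ccl11 passed the filter on low counts only through KO libraries, where it was highest. Its being tested is thus not independent of these comparisons, and the counts of ligands called higher are partly set by the filter. Ccl6 was higher by 2.62 in hypoxia KO, Cxcl9, an interferon-induced partner of Cxcl10, by 3.41, Pf4 by 0.89 and the membrane-bound Cx3cl1 by 1.03, and Ccl25 was lower, at -0.71. Cxcl9 reached 16.5 CPM in hypoxia KO 4 and 0.714 to 2.19 CPM in the other hypoxia KO libraries. Of 18 receptors, 9 were tested. Ccr2, the receptor of Ccl2 and Ccl7 and also a monocyte marker, was higher in KO by 3.70 ± 0.68 in hypoxia (adjusted p = 0.00116) and by 2.44 ± 0.72 in normoxia (adjusted p = 0.0275). The lymphocyte receptors Ccr7 and Cxcr5 were higher in hypoxia KO by 3.95 and 2.53, and Ccr10 was lower, at -0.88. Cxcr5 passed the filter on low counts only with the hypoxia KO libraries included, so its being tested is not independent of this comparison. Cxcr2, the receptor of Cxcl1 and Cxcl2, did not pass the filter on low counts and was at 6.98 CPM in hypoxia KO 4 and at most 0.612 CPM elsewhere.

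Of 26 inducers and processing enzymes, 22 were tested. In hypoxia 9 were higher in KO and 2 were lower, and in normoxia 6 were higher and 0 lower. Dpp4, a peptidase that trims the ends of several chemokines, was at 195 to 213 CPM in hypoxia KO against 91.0 to 108 CPM in hypoxia flox, and at 152 to 206 CPM in normoxia KO against 56.7 to 68.7 CPM in normoxia flox. Its log2 fold change was 1.07 ± 0.09 in hypoxia (adjusted p = 1.58e-06) and 1.58 ± 0.09 in normoxia (adjusted p = 2.60e-08). Dpp4 was also higher in hypoxia flox than in normoxia flox, by 0.66 ± 0.09 (adjusted p = 3.01e-04). The endotoxin receptor Tlr4 was at 30.5 to 39.7 CPM in hypoxia KO against 11.6 to 16.0 CPM in hypoxia flox, a difference of 1.36, and at 19.5 to 33.0 CPM in normoxia KO against 9.38 to 10.6 CPM in normoxia flox, a difference of 1.48. Tlr2 rose by 1.57 at both oxygen levels, and the NF-kB subunits Relb and Rela by 0.74 and 0.68 in hypoxia and by 0.88 and 0.46 in normoxia. The tumour necrosis factor receptor Tnfrsf1b was higher in KO by 0.69 in hypoxia and by 0.61 in normoxia. In hypoxia KO the interferon-gamma receptor subunit Ifngr2 was higher by 0.50 and Adam10 by 0.31, and the protease Adam17 was lower, at -0.26. The cytokine Il1b was higher in hypoxia KO by 4.77 ± 1.09 (adjusted p = 0.00589), at 48.9 CPM in KO 4, 0.754 to 8.78 CPM in the other KO libraries and 0.248 to 0.931 CPM in flox. Its receptor Il1r1 was lower in hypoxia KO, at -0.71 ± 0.21 (adjusted p = 0.0245), and lower in hypoxia KO than in normoxia KO, at -1.04 ± 0.20 (adjusted p = 0.0180).

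**Figure D5:**
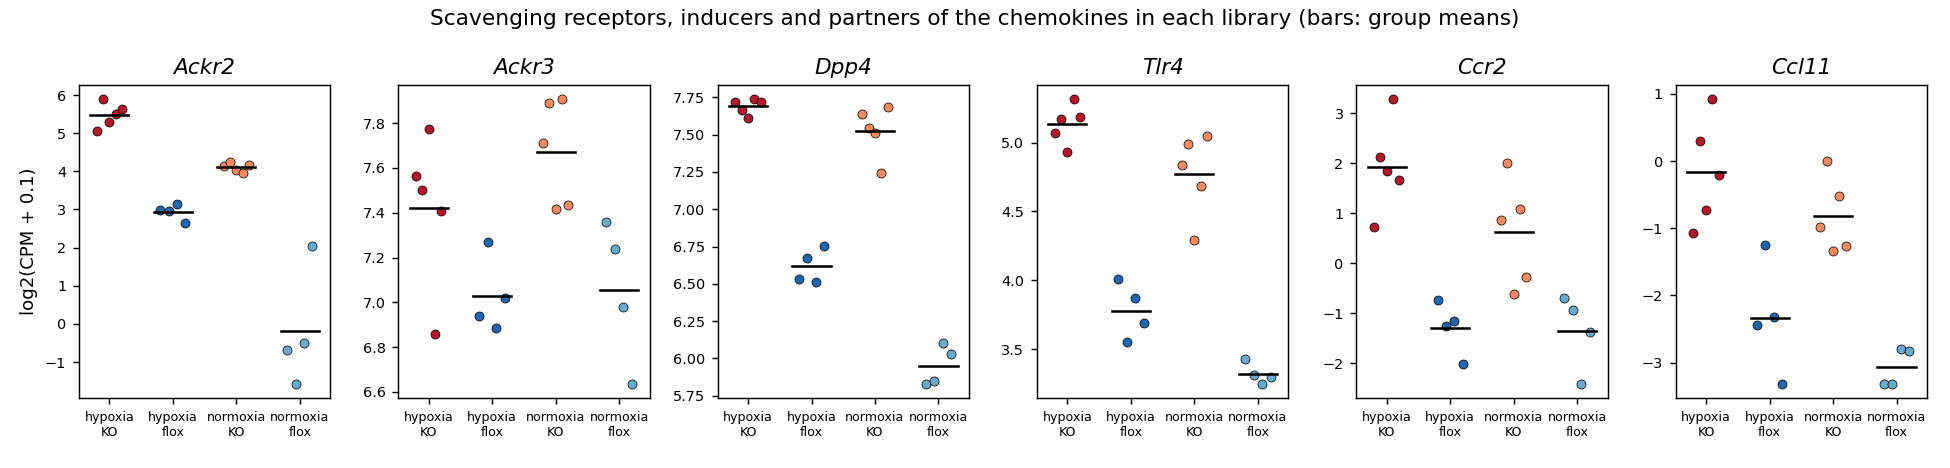
Level of Ackr2, Ackr3, Dpp4, Tlr4, Ccr2 and Ccl11 in each library, as log2(CPM + 0.1), with group means as bars. Ackr2, Dpp4 and Tlr4 keep KO above flox in every library at both oxygen levels.

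The genes most like each member were named by Pearson's r of log2 CPM over the 18 libraries, among 14706 genes whose mean log2 CPM was at least 0, as a description. The libraries share groups, Fos level and leukocyte RNA. Nearest to Cxcl1 were Dusp1 (r = 0.984), Tnfaip3 (0.982) and Nr4a1 (0.981), and nearest to Cxcl2 were Dusp5, Fbxo33 and Nfkbiz (0.979 to 0.984). Cxcl10 was nearest to Nfkbid (0.928), Tnfaip3 and Sele. Ccl9 was nearest to Arhgap30 (0.968), Sla and Dock2, Ccl4 to Rabgef1 (0.965), Zc3h12a and Dusp2, and Ccl3 to Lilr4b (0.944), Bach2 and Dusp2. Ccl5 was nearest to Ubtd1 (0.984), Mvb12b and Pxdc1, Cxcl16 to Eif2b2 (0.928), Vim and Slc39a1, Ccl2 to Gm49037 (0.938), Rab43 and Stk35, and Ccl7 to Tagap (0.941), Zc3h12c and Gm49037. Among the members themselves, Cxcl1 and Cxcl2 were the closest pair (r = 0.976), then Ccl3 and Ccl4 (0.951), and Cxcl2 and Cxcl16 were the least alike (0.565).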

How the data were processed

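RNA of isolated brain endothelial cells was sequenced in 18 libraries, and the deposited table holds raw counts and RPKM per gene. Per the submitters' processing notes, HISAT2, edgeR and the GRCm39 build were used, and versions are not given in the sources used here. The strand setting of the counting and its treatment of reads that fit several genes are not given either, so reads of overlapping or closely related genes cannot be told apart. The deposited counts were whole numbers, and the authors' RPKM values, rounded to 1 decimal, were used only for levels between genes and for a limma alternative (pseudocount 0.1).

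The 10 members and all gene lists were chosen with earlier results of these data known. Counts were analysed with edgeR 4.0.16 (R 4.3.3; TMM scaling, filterByExpr, quasi-likelihood test), in 1 fit of 4 groups over all 18 libraries, with Benjamini-Hochberg adjustment over 17531 genes. The procedure was tested on simulated data. The text names all 10 members, the listed pathway genes past the threshold and the 3 genes nearest to each member by Pearson's r. Log2 CPM used a prior count of 2.

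Deviations from group means correlated at 0.579, 0.294 and 0.847 between the normoxia KO and flox libraries numbered 1, 2 and 4. Both normoxia libraries numbered 4 held neural RNA, and libraries of different numbers were not compared. The labels do not state pairing, so it is not known, and the main fit used none. Alternatives were DESeq2 1.42.0, limma 3.58.1 on log2 RPKM, other scaling and filters, replicate blocks, immediate early and sex covariates, fits of only the groups compared and leaving out each library. The fit with both covariates was added after seeing the data.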

Additional observations from a re-analysis of the deposited data

Results flagged for a closer look

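A library was listed here where its gap to the nearest other library of its group, divided by the group's range, exceeded Dixon's 95% value (0.829 for 4 libraries, 0.710 for 5). Of 60 groups of values checked, 11 met this, 7 of them for the chemokines themselves. Dixon's value assumes normally distributed values, which CPM with zeros are not, so no rate by chance is given. Where all other libraries of a group are at 0, the ratio is at its maximum by construction. That was so for Ccl2 in normoxia flox and for Ccl7 in both flox groups.

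Hypoxia flox 2 stood above the other hypoxia flox libraries for Cxcl1, at 189.7 CPM with the next at 35.4 CPM, and for Cxcl2, at 62.7 CPM with the next at 6.07 CPM. Ccl7 in the same library was at 0.0838 CPM, with the other 3 at 0. Hypoxia KO 4 stood above the other hypoxia KO libraries for Ccl5, at 13 CPM with the next at 3.83 CPM, and for Cxcl10, at 28.7 CPM with the next at 12.2 CPM. The same library was apart for the summed neutrophil markers, at 133 CPM with the next at 8.03 CPM, and for the summed monocyte and macrophage markers, at 76.5 CPM with the next at 45.1 CPM.

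Normoxia flox 4 held the flox counts of Ccl2, at 0.204 CPM, and of Ccl7, at 0.0408 CPM, with the other 3 libraries at 0 for both. Microglia markers summed to 187 CPM in normoxia flox 4, with the next at 27.0 CPM, and to 122 CPM in normoxia KO 4, with the next at 42.0 CPM.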

How the results depend on the processing

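Of 1300 alternative values for single chemokine genes, 1247 kept their side of the threshold, 43 lost a call and 10 gained one. The sign changed in 47 values, spread over 13 of 45 results, all of them results with no call in any setting (Cxcl10 for KO against flox in hypoxia in 5 of 30 alternatives, the others in the oxygen comparison of flox and the interaction). No called value changed sign. For KO against flox in hypoxia, 6 members were higher, against 3 with the immediate early covariate, 3 with it and the sex covariate, and 3 in limma on log2 RPKM; leaving out 1 library gave 2 to 6. In normoxia the count of 1 became 2 in DESeq2 and 3 without both libraries with neural RNA; leaving out 1 library gave 1 to 2. For hypoxia against normoxia in KO, the count of 1 became 2 with the immediate early covariate, alone or with sex, and 0 in limma, with no low count filter, in the fit of only the groups compared, with the replicate block over all libraries and without both neural libraries; leaving out 1 library gave 0 to 1. In flox, DESeq2 gave 1 against 0, and leaving out 1 library gave 0 to 1. The causes were not tested.

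The replicate block within oxygen gave 1 member in normoxia (Ccl5, 3.23, adjusted p = 0.0281) and 7 in hypoxia, where Cxcl1 was added at 3.13 (adjusted p = 0.0465). Hypoxia libraries of the same number correlated at 0.158, 0.0403, -0.183 and -0.339, so their numbers are not taken as pairs. Whether the normoxia numbers mark pairs is not known. Over all libraries the block gave 5 members in hypoxia and 1 in normoxia.

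Counts over all genes that moved by over 1.5 times were 492 for oxygen in flox (833 in DESeq2, 964 with the immediate early covariate), 260 for oxygen in KO (617 in DESeq2, 538 and 620 with the immediate early covariate without and with sex, 107 with only the groups compared, 43 with the block, 53 to 523 leaving out 1 library) and 78 for the interaction (145 in DESeq2, 3 and 0 with the blocks, 28 to 98 leaving out 1 library). For KO against flox in normoxia, 2905 became 1793 and 1574 with the blocks.

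Depth limits Ccl2, Ccl3, Ccl4, Ccl5, Ccl7 and Ccl9, which had under 5 counts in at least 1 library.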

Other observations

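Mural cell markers also differed between KO and flox libraries. In hypoxia 5 of 6 tested smooth muscle markers were lower in KO, with a median log2 fold change of -1.41 over the list, and 5 of 8 tested pericyte markers were higher, with a median of 1.93. In normoxia 5 of 6 smooth muscle markers were lower in KO (median -1.99) and 3 of 8 pericyte markers were higher (median 1.47).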
